A study of Mus musculus with 82 samples.

Results

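The filaggrin family holds the fused S100 proteins, and its 7 genes in mouse ear skin are described here: Flg (ENSMUSG00000102439), Flg2 (ENSMUSG00000049133), Hrnr (ENSMUSG00000041991), Rptn (ENSMUSG00000041984), Tchh (ENSMUSG00000052415), Tchhl1 (ENSMUSG00000027908) and Crnn (ENSMUSG00000078657). They were taken by symbol from the 56941 genes listed in each of the 2 count tables, and all 7 were found in both. RNA was sequenced from right ear punches of female C57BL/6J Rj mice, in which cream with 5% imiquimod, an agonist of the receptor TLR7, was applied daily from day 0 to day 7 to inflame the skin. The oral CCR6 inhibitor IDOR-1117-2520, called the drug here, was given to some mice in their drinking water, and the design asks what CCR6 inhibition does to the inflammatory response. The time course has 52 libraries: imiquimod with the drug from at least 1 day before day 0, imiquimod alone, and sham (labelled vehicle), each at days 2, 5 and 8. The start-day experiment has 30 libraries: imiquimod with the drug started on day 0, day 3 or day 5, imiquimod alone, and sham. Its sham and imiquimod libraries are labelled day 8, and its drug groups carry a time of treatment of day 8, 5 and 3. Comparing them assumes that all were harvested on 1 day, with that time counting days of drug, which the labels do not state. The labels name no transgene, deletion or age, and each group has 6 libraries except the day 5 sham group, which has 4.

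Fused S100 proteins are made in the uppermost living layers of stratified epithelia and in hair follicles. Each joins an S100-like calcium-binding start to a long repetitive body, and much of that body is cross-linked into the cornified cell layer by transglutaminases. Profilaggrin, the product of Flg, is stored in keratohyalin granules, cut into filaggrin units that bundle keratin, and then broken down to the free amino acids that keep the outer skin moist. Loss of filaggrin weakens the human skin barrier and raises the risk of atopic dermatitis.

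The 7 genes are neighbours on mouse chromosome 3, where RefSeq places them in the order Crnn, Flg2, Flg, Hrnr, Rptn, Tchh and Tchhl1 with no other protein-coding gene among them. Promoters of all 7 were matched by symbol in RefSeq sequences of build GRCm38.p6, which is not the GRCm39 build of the counts. Flg and Flg2 lie side by side and changed in opposite directions under imiquimod. The 250 bases before the start of each are therefore shown 5′ to 3′. Capitals mark the letters TGANTCA, where N is any base, called an AP-1-like motif here. The Flg sequence is chr3:93273296-93273545 and the Flg2 sequence is chr3:93197023-93197272, both on the plus strand.
Flg: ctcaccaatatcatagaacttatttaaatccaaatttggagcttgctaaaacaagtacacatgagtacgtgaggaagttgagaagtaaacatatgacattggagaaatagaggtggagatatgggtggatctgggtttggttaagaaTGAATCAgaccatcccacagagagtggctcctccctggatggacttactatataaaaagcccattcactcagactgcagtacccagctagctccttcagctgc
Flg2: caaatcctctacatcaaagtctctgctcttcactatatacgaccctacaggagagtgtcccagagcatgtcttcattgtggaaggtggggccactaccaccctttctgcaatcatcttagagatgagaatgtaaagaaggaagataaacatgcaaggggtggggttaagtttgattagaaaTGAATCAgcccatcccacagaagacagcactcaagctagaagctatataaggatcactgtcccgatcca

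The motif, which reads the same on both strands, was found in 5 of the 7 promoters, against 6.75% of the 32851 promoters searched over the same length. It begins 103 bases before the start of Flg, 69 before Flg2, 96 before Rptn, 87 before Tchhl1 and 96 before Crnn, and these letters were not in the windows of Hrnr and Tchh. TATAAA, searched on both strands, was found in 4 of the 7 and in 12.4% of all promoters. The 31 bases around the AP-1-like motif are given to show how alike they are, with the motif in capitals.
Flg: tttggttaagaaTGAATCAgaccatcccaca
Flg2: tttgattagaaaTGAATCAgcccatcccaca
Rptn: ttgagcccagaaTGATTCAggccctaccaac
Tchhl1: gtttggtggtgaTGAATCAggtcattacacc
Crnn: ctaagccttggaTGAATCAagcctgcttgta
Laid on the motif without gaps, the Flg and Flg2 windows are equal at 27 of 31 bases, and the other pairs at 13 to 20. A match describes the letters and does not show that a factor binds there. The motif reads TGATTCA in Rptn and TGAATCA in the others. No match thus has C or G as its middle base, while the 6.75% counts any middle base. The matches are called AP-1-like by these letters only and are not named AP-1 sites. The genes are neighbours of the same family, so the 5 matches are not independent, and no test against all promoters was run.

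Depth ran from 13.1 to 35.5 M counts per library over both experiments. Levels are given as CPM, counts divided by library size and scaled to 1e6, on library sizes scaled by TMM factors, and they are compared between libraries for the same gene, not between genes, because they are not divided by gene length. A change was called at an edgeR quasi-likelihood adjusted p under 0.05, with the Benjamini-Hochberg adjustment over the 18780 genes tested in the time course or the 18434 tested in the start-day experiment. Each ± after a log2 fold change is its standard error. The labels do not say that libraries came from separate mice, so p-values set a difference against the spread between these libraries. That spread was estimated over all groups of a fit, including groups not compared. An ear punch mixes many cell types, so fewer cells of a type and less RNA per cell cannot be told apart.

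Under imiquimod the family split. Flg, Rptn, Tchh, Tchhl1 and Crnn rose in all 4 comparisons with sham, Flg2 fell in all 4, and Hrnr fell at day 5 and rose in the start-day experiment. At day 2, 5 members were called higher and 1 lower, while 29.2% of all tested genes were called higher and 28.5% lower, 57.7% in all. At day 5, 5 were called higher and 2 lower (all genes 34.6% and 35.9%, 70.4% in all). At day 8, 5 were called higher and 1 lower (34.5% and 33.6%, 68.1% in all), and in the start-day experiment 6 higher and 1 lower (38.1% and 39.9%, 78.1% in all). With shares that large among all genes, the count of members called is not itself a result about them. Tchhl1 and Crnn passed the filter on low counts only through groups where they were high, so for these 2 genes a difference was built in. Over the other 5 genes the middle log2 fold change was that of Tchh, 0.55 at day 2, 1.08 at day 5, 1.25 at day 8 and 1.56 in the start-day experiment, while the medians over all tested genes lay between -0.04 and -0.01.

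**Figure D1:**
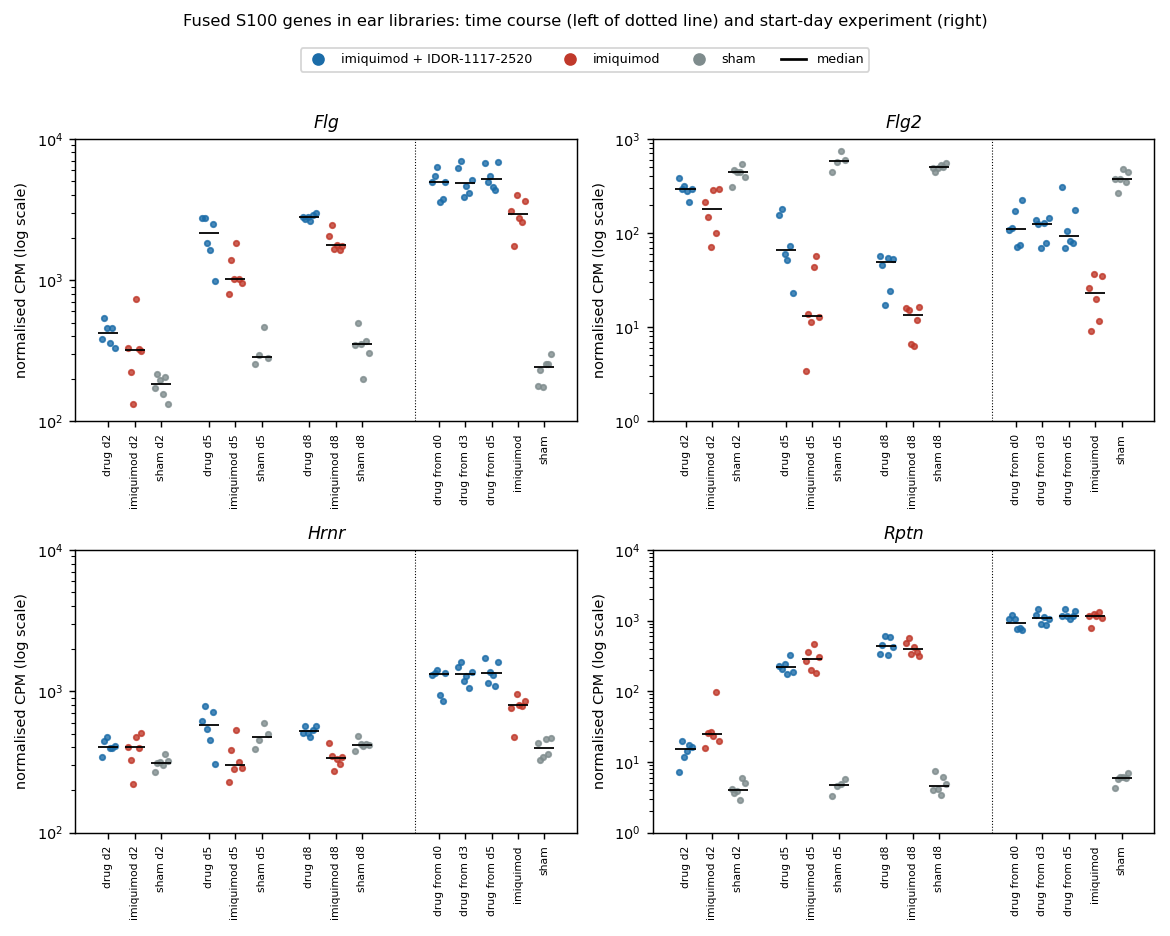
Normalised CPM (log axis) of Flg, Flg2, Hrnr and Rptn in each library (points) with group medians (bars), by group and day. Flg and Rptn lie above sham in imiquimod ears from day 5, Flg2 lies below it, and drug-treated ears lie above imiquimod ears for Flg2 in every group from day 5 on by their medians.

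Flg rose at every time examined. At day 2, imiquimod libraries ranged from 133 to 740 CPM with a median of 320, against 133 to 216 with a median of 184 in sham ears. At day 5 imiquimod ears ranged from 797 to 1820 CPM (median 1021), against 256, 293, 464 and 281 CPM in the 4 sham libraries. At day 8 they ranged from 1626 to 2469 CPM (median 1761), against 198 to 498 (median 350) in sham ears. The groups overlapped at day 2, where 5 of 6 imiquimod libraries were above every sham library, and did not overlap at day 5 or day 8. The log2 fold change was 0.94 ± 0.25 at day 2 (edgeR adjusted p = 0.00162), 1.85 ± 0.30 at day 5 (5.97e-07) and 2.45 ± 0.26 at day 8 (4.14e-11). Without imiquimod library 10, the highest at day 2, the day 2 value was 0.56 (edgeR adjusted p = 0.0338). Start-day imiquimod ears held 1749 to 3980 CPM (median 2934), against 175 to 302 (median 242) in sham ears, with no overlap and a log2 fold change of 3.67 ± 0.21 (edgeR adjusted p = 9.9e-15).

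Flg2, a close relative of Flg and also a protein of the cornified layer, moved the other way. At day 2 imiquimod ears held 70.1 to 296 CPM (median 181), against 308 to 540 (median 445) in sham ears. At day 5 they held 3.39 to 56.4 CPM (median 13.3), against 441, 564, 735 and 596 CPM in sham ears. At day 8 they held 6.33 to 16.2 CPM (median 13.5), against 443 to 555 (median 499) in sham ears. Every imiquimod library lay below every sham library at each day. The log2 fold change was -1.22 ± 0.40 at day 2 (edgeR adjusted p = 0.00772), and it was -4.63 at day 5 and -5.38 at day 8, or 0.0403 and 0.024 times the sham level. With limma voom the day 5 value was -5.22. The day 2 call was lost without imiquimod libraries 9 and 11 (-0.87, edgeR adjusted p = 0.0851). Start-day imiquimod ears ranged from 9.11 to 36.4 CPM (median 23), against 266 to 476 (median 376) in sham ears, a log2 fold change of -4.04 ± 0.41 (edgeR adjusted p = 1.19e-09), again with no overlap.

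Hrnr encodes hornerin, a further repeat protein of the cornified layer, and its change was small and differed in sign. At day 2 imiquimod ears ranged from 222 to 507 CPM (median 401), against 266 to 358 (median 313) in sham ears, and the difference was not called (0.32 ± 0.17, edgeR adjusted p = 0.105) but was called without imiquimod library 9 (0.44, 0.0217). At day 5 imiquimod ears held 228 to 530 CPM (median 301), against 393, 450, 594 and 500 CPM in sham ears. Hrnr fell there by 0.52 ± 0.19 on the log2 scale (edgeR adjusted p = 0.0119), with 5 of 6 imiquimod libraries below every sham library, and this call was lost without sham library 21 (-0.41, edgeR adjusted p = 0.0702) and in a fit of the compared groups alone (-0.53, 0.063). At day 8 the range was 273 to 427 CPM (median 339) in imiquimod ears, against 380 to 483 (median 419) in sham ears, and the log2 difference of -0.32 ± 0.17 was not called (edgeR adjusted p = 0.09). The day 8 difference was called when libraries were scaled on 8 epithelial genes (-0.48, edgeR adjusted p = 0.00349), with limma voom (-0.32, 0.0432) in the compared groups alone (-0.35, 0.00361) and without imiquimod library 44 (-0.40, 0.0441). In the start-day experiment Hrnr was higher instead, at 475 to 959 CPM (median 796) in imiquimod ears, against 324 to 468 (median 395) in sham ears, with no overlap and a log2 fold change of 0.96 ± 0.16 (edgeR adjusted p = 4.35e-06). The epithelial scaling lowered that value to 0.42 (edgeR adjusted p = 0.0066).

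Rptn encodes repetin, a minor part of the cornified envelope in mouse skin that binds calcium. At day 2 it stood at 15.8 to 97.8 CPM (median 24.4) in imiquimod ears, against 2.92 to 5.88 (median 4.01) in sham ears. At day 5 imiquimod ears held 180 to 459 CPM (median 287), against 3.26, 4.49, 4.86 and 5.75 CPM in sham ears. At day 8 they held 318 to 565 CPM (median 396), against 3.45 to 7.43 (median 4.54) in sham ears. No imiquimod library overlapped a sham library at any day. The log2 fold changes were 3.02 ± 0.35 at day 2, 6.01 ± 0.42 at day 5 and 6.38 ± 0.36 at day 8, with edgeR adjusted p-values of 6.68e-10, 1.59e-16 and 9.1e-20. Without imiquimod library 11, at 97.8 CPM, the day 2 value was 2.40 (edgeR adjusted p = 5.32e-10). The level was 797 to 1309 CPM (median 1168) in imiquimod ears, against 4.2 to 7.02 (median 5.96) in sham ears of the start-day experiment, which is 192 times the sham level (log2 fold change 7.59 ± 0.20, edgeR adjusted p = 1.79e-22). It had the highest positive fold change of the 7 genes at day 5, at day 8 and in the start-day experiment. At day 2 its place above Tchhl1 rested on library 11, without which Tchhl1 had 2.72.

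Tchh encodes trichohyalin, a protein of the inner root sheath of hair follicles and of the medulla of the hair shaft. At day 2 imiquimod ears held 7.39 to 9.55 CPM (median 8.35), against 4.75 to 6.5 (median 5.92) in sham ears. At day 5 they held 11.2 to 14.1 CPM (median 12.1), against 6.86, 5.28, 5.44 and 5.95 CPM in sham ears. At day 8 they held 11.5 to 16.1 CPM (median 14.1), against 4.23 to 7.26 (median 5.95) in sham ears. The groups did not overlap at any day, nor in the start-day experiment, where imiquimod ears held 12.6 to 18.9 CPM (median 16.1), against 4.33 to 6.7 (median 5.64) in sham ears. The log2 fold changes were 0.55 ± 0.12, 1.08 ± 0.13 and 1.25 ± 0.12 at days 2, 5 and 8, and 1.56 ± 0.10 in the start-day experiment, with edgeR adjusted p-values of 0.000105, 6.61e-10, 2.27e-13 and 3.03e-15. With the epithelial scaling the start-day value was 1.01. Keratins that define the inner root sheath had low medians over the 82 libraries, the highest being 1.04 CPM for Krt71, and Krt72 had a median of 0. Their summed level reached 12.7 CPM in a start-day imiquimod library (group median 1.99) and 13.2 CPM in a day 5 drug library (group median 2.76). Of 5 such keratins tested, 0 were called under imiquimod at days 2, 5 and 8 and 1 was called lower in the start-day experiment. In drug-treated ears against sham, 2 were called higher at day 2 and 1 at day 5, against 24.2% and 31.1% of all genes. There, 0 were called at day 8 and 1 was called lower from each start day. Hair cortex keratins had medians between 0 and 0.0649 CPM, and none passed the filter on low counts.

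Tchhl1, a trichohyalin-like gene whose protein is little studied, and Crnn, which encodes cornulin, a protein of squamous epithelia best known in the human oesophagus, were near 0 in sham ears. No sham library exceeded 0.293 CPM for Tchhl1 or 0.443 CPM for Crnn. Both passed the filter on low counts only through groups where they were high. A difference from sham was thus built in, and the calls against sham below do not test it. In imiquimod ears Tchhl1 had medians of 0.17, 1.02 and 0.749 CPM at days 2, 5 and 8, against 0.013, 0.0807 and 0.0367 CPM in sham ears. The 6 day 2 sham libraries held 3 counts of Tchhl1 in all, and 19 counts were found in the 6 imiquimod libraries, a depth-corrected ratio of 7.46 with a 95% exact counting interval from 2.2 to 39.4. This interval covers counting error only. Tchhl1 was called at day 5 (log2 fold change 2.95 ± 0.64, edgeR adjusted p = 5.95e-05), with 5 of 6 imiquimod libraries above every sham library and a value of 3.77 without sham library 20, and at day 8 (4.35 ± 0.65, 5.85e-08) with no overlap. Start-day imiquimod ears held 1.65 to 3.84 CPM of Tchhl1, against 0 to 0.145 CPM in sham ears (5.25 ± 0.39, edgeR adjusted p = 7.29e-14).

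Crnn had medians of 0.274, 0.86 and 1.21 CPM in imiquimod ears at days 2, 5 and 8, against 0.0534, 0.0629 and 0.107 CPM in sham ears. Its groups overlapped at day 2 and did not at days 5 and 8. The day 2 change of 1.58 ± 0.67 was called narrowly (edgeR adjusted p = 0.0387) and was lost with limma voom (1.71, adjusted p = 0.0608), without the filter on low counts (1.56, 0.0638) and when any of imiquimod libraries 7, 8 and 12 or sham libraries 1, 3 and 6 was left out (edgeR adjusted p from 0.0764 to 0.0835). Log2 fold changes at days 5 and 8 were 3.21 ± 0.64 and 3.20 ± 0.51, with edgeR adjusted p-values of 1.74e-05 and 2.98e-07. The day 5 value was 4.23 without sham library 19 and 4.04 with limma voom, and the day 2 value was 2.38 without sham library 2. Start-day imiquimod ears held 1.52 to 3.61 CPM, against 0.0672 to 0.443 CPM in sham ears (3.76 ± 0.45, edgeR adjusted p = 9.79e-09). Krt13, a keratin of the mouth and oesophagus that Crnn accompanies there, had a median of 0.0948 CPM and a maximum of 0.669 CPM over all libraries. Krt4, the other such keratin measured, had a median of 0.856 CPM and a maximum of 1.6 CPM. Of these 2, 0 were called under imiquimod at day 2, 2 were called lower at day 5 and 1 at day 8. In the start-day experiment 1 was tested and was called lower. Over all genes 28.5%, 35.9%, 33.6% and 39.9% were called lower in those comparisons.

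**Figure D2:**
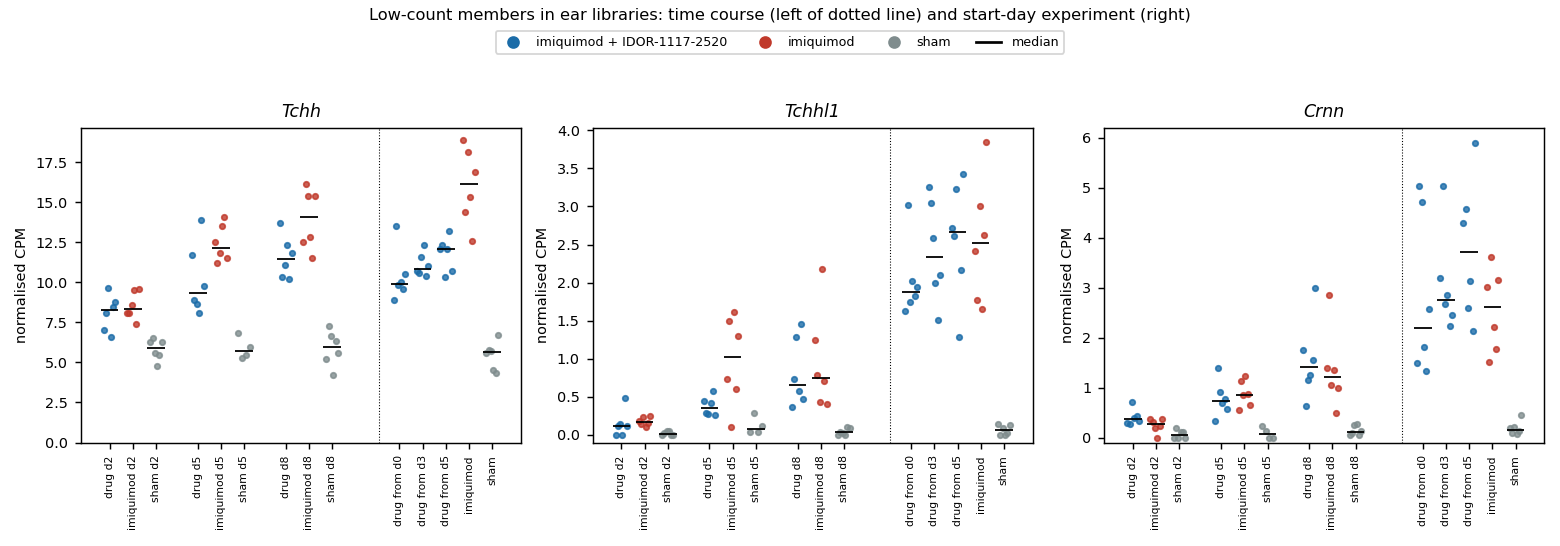
Normalised CPM (linear axis) of Tchh, Tchhl1 and Crnn in each library (points) with group medians (bars). Sham ears stay at or under 0.293 CPM for Tchhl1 and 0.443 CPM for Crnn, and in the start-day experiment drug-treated ears have Tchh medians of 9.93 to 12.1 CPM, below the 16.1 CPM of imiquimod ears.

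The size of the imiquimod effect changed over the days for 5 of the 7 genes, against 33.4% of all tested genes. The edgeR F test of the effect among days 2, 5 and 8 gave an adjusted p of 0.00318 for Flg, 8.16e-07 for Flg2, 0.0158 for Hrnr, 1.65e-06 for Rptn and 0.00271 for Tchh, and it missed the threshold for Tchhl1 (0.432) and Crnn (0.299). Among the sham groups, 1 member was called to differ by day, against 5.52% of all genes. That gene was Flg (edgeR adjusted p = 0.0342), whose sham median was 184 CPM at day 2, 287 at day 5 and 350 at day 8. The call was lost without the filter on low counts (edgeR adjusted p = 0.0783) and when sham library 1, 3, 4 or 6 of day 2, or 38 or 41 of day 8, was left out (0.0535 to 0.0912). Hrnr missed the threshold among sham groups (edgeR adjusted p = 0.06) but had an unadjusted p under 0.05. Its sham medians were 313, 475 and 419 CPM at days 2, 5 and 8. The imiquimod effects on Hrnr are set against these sham levels, which may themselves differ by day.

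The ratio of Flg2 to Flg in the same library was far lower in imiquimod ears than in sham ears. Imiquimod ears held a median of 58.5 Flg2 counts per 100 Flg counts at day 2, 1.23 at day 5 and 0.671 at day 8, against 244, 182 and 140 in sham ears. In the start-day experiment the ratio was 0.78 in imiquimod ears, against 167 in sham ears, and the groups did not overlap in either experiment. Hrnr was lower relative to Flg as well, at 25.8 per 100 Flg counts in imiquimod ears, against 167 in sham ears of the start-day experiment, while Rptn stood at 39.9 per 100 Flg counts, against 2.39 in sham ears. These ratios are of counts and not per length, so they can be compared between groups but do not rank the genes. The family together took a median of 0.48% of all counts in imiquimod ears of the start-day experiment, against 0.112% in sham ears.

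**Figure D3:**
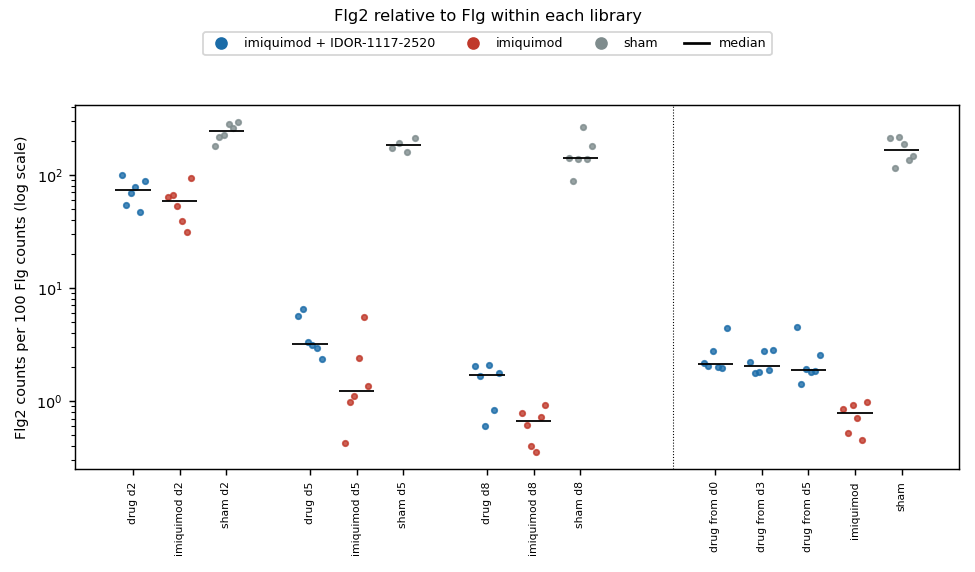
Flg2 counts per 100 Flg counts (log axis) in each library (points) with group medians (bars). Sham ears sit at 88.8 to 294, while imiquimod ears from day 5 on sit at 0.355 to 5.52 and drug-treated ears from day 5 on at 0.605 to 6.55.

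With the drug, Flg, Flg2 and Hrnr were higher than in ears with imiquimod alone at day 5 and from every start day, and Tchh was lower there. For Flg2 this was a move toward the sham level, while for Flg it was a move further above it. At day 2, 0 members were called higher and 1 lower, while 6.90% of all genes were called higher and 9.61% lower, 16.5% in all. At day 5, 3 were called higher and 2 lower (all genes 18.3% and 17.2%, 35.4% in all), and at day 8, 2 higher and 0 lower (1.22% and 0.335%, 1.56% in all). With the drug from day 0, day 3 or day 5, 3 members were called higher and 1 lower each time. The shares of all genes were 18.2% higher and 16.9% lower from day 0 (35.1% in all), 18% and 16.4% from day 3 (34.3%), and 15% and 12.7% from day 5 (27.7%). The 3 start-day comparisons share their imiquimod libraries. Each drug comparison also shares its imiquimod libraries with imiquimod against sham, so error in those libraries moves both effects in opposite directions. Members' medians were 0.08, -0.17 and 0.21 at days 2, 5 and 8. From days 0, 3 and 5 they were 0.15, 0.27 and 0.56, while the medians of all genes lay between 0.00 and 0.02. Apart from day 2, each median was the value of Crnn, a low-count gene called in none of these comparisons. Without Tchhl1 and Crnn, the middle value was that of Hrnr at days 2 and 5 (0.08 and 0.75). From days 0, 3 and 5 it was again that of Hrnr (0.64, 0.79 and 0.83), and at day 8 that of Flg (0.57).

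**Figure D4:**
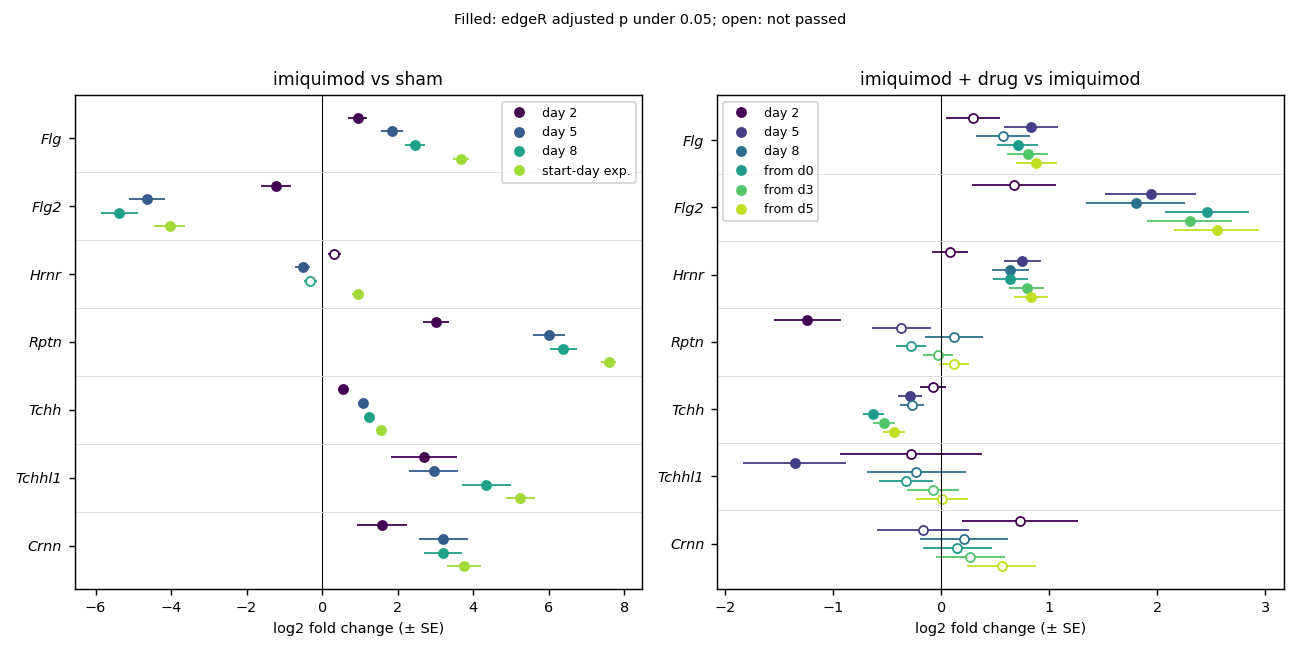
Log2 fold changes with standard errors (horizontal bars) of the 7 genes for imiquimod against sham (left, 4 comparisons) and for imiquimod with drug against imiquimod (right, 6 comparisons). Filled points passed an edgeR adjusted p of 0.05 and open points did not. Flg2 is at or below -1.22 on the left and at or above 0.67 on the right.

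Flg2 gave the highest fold change of the 7 genes under the drug at day 5, at day 8 and from each start day. At day 2 drug-treated ears held 215 to 383 CPM (median 292), against 70.1 to 296 (median 181) in imiquimod ears, and the difference was not called (0.67 ± 0.39, edgeR adjusted p = 0.248). At day 5 the range was 23.1 to 181 CPM (median 66.7) with the drug, against 3.39 to 56.4 (median 13.3) without it, with 4 of 6 drug libraries above every imiquimod library (1.94 ± 0.42, edgeR adjusted p = 0.000371). At day 8 it was 17 to 57 CPM (median 48.8), against 6.33 to 16.2 (median 13.5), and the groups did not overlap (1.80 ± 0.46, edgeR adjusted p = 0.032). That day 8 call was lost without the filter on low counts (edgeR adjusted p = 0.0662) and when imiquimod library 45, 46, 47, 48 or 49 or drug library 51, 52, 54 or 56 was left out (0.0513 to 0.0868). From day 0 the drug gave 71.2 to 222 CPM (median 110), from day 3 it gave 69.9 to 143 (median 126) and from day 5 it gave 69.5 to 304 (median 92.9), against 9.11 to 36.4 (median 23) in imiquimod ears. None of the 3 drug groups overlapped the imiquimod group, and the log2 fold changes were 2.46 ± 0.39, 2.30 ± 0.39 and 2.55 ± 0.39, with edgeR adjusted p-values of 2.58e-05, 6.1e-05 and 3.61e-05.

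Flg was higher with the drug by a smaller factor. At day 2 drug-treated ears held 328 to 541 CPM (median 420), against 133 to 740 (median 320) in imiquimod ears, a difference that was not called (0.29 ± 0.25, edgeR adjusted p = 0.47) but was called without imiquimod library 10 (0.67, 0.0348). At day 5 they held 987 to 2759 CPM (median 2155), against 797 to 1820 (median 1021), with 4 of 6 drug libraries above every imiquimod library (0.83 ± 0.25, edgeR adjusted p = 0.00882). At day 8 every drug library, at 2620 to 2983 CPM (median 2802), lay above every imiquimod library, at 1626 to 2469 (median 1761), yet the difference of 0.57 ± 0.25 missed the threshold over all genes (edgeR adjusted p = 0.271) and passed it in a fit of the compared groups alone (0.57, 0.00898). From day 0, day 3 and day 5 the drug groups had medians of 4955, 4854 and 5185 CPM, against 2934 in imiquimod ears. The lowest drug library of these groups, at 3561 CPM, lay below the highest imiquimod library, at 3980, and the day 5 start did not overlap the imiquimod group. The log2 fold changes were 0.71 ± 0.19, 0.80 ± 0.19 and 0.88 ± 0.19, with edgeR adjusted p-values of 0.00511, 0.002 and 0.00118.

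Hrnr was also higher with the drug from day 5 on. It was not called at day 2, at 343 to 473 CPM (median 403) in drug-treated ears, against 222 to 507 (median 401) in imiquimod ears (0.08 ± 0.17, edgeR adjusted p = 0.794). At day 5 drug-treated ears held 304 to 787 CPM (median 576), against 228 to 530 (median 301) in imiquimod ears (0.75 ± 0.17, edgeR adjusted p = 0.000484), with 4 of 6 drug libraries above every imiquimod library. At day 8 they held 477 to 568 CPM (median 519), against 273 to 427 (median 339), with no overlap (0.64 ± 0.17, edgeR adjusted p = 0.0387). The day 8 call was lost without the filter on low counts (edgeR adjusted p = 0.0833) and when imiquimod library 45, 46, 47, 48 or 49 or drug library 52, 54, 55 or 56 was left out (0.0527 to 0.108). The start-day groups had medians of 1325, 1321 and 1338 CPM from days 0, 3 and 5, against 796 in imiquimod ears, and the starts on day 3 and day 5 did not overlap the imiquimod group. Log2 fold changes there were 0.64 ± 0.16, 0.79 ± 0.16 and 0.83 ± 0.16, with edgeR adjusted p-values of 0.00215, 0.00034 and 0.000284. Per 100 Flg counts, Hrnr had medians of 25.5, 26.1 and 25.2 in those drug groups, against 25.8 in imiquimod ears, so the ratio of both genes stayed within the imiquimod range of 23.4 to 30.6 by its medians. Flg2 per 100 Flg counts had medians of 2.11, 2.05 and 1.87, against 0.78, and the lowest drug library, at 1.41, lay above the highest imiquimod library, at 0.977.

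Tchh was lower with the drug at day 5 and from each start day. At day 5 drug-treated ears held 8.07 to 13.9 CPM (median 9.33), against 11.2 to 14.1 (median 12.1) in imiquimod ears (-0.29 ± 0.11, edgeR adjusted p = 0.0424). This call was lost without the filter on low counts (edgeR adjusted p = 0.082), in the compared groups alone (0.0835) and when imiquimod library 25, 28 or 29 or drug library 32, 33, 34 or 36 was left out (0.063 to 0.125). The starts on days 0, 3 and 5 had ranges of 8.88 to 13.5, 10.4 to 12.3 and 10.3 to 13.2 CPM, against 12.6 to 18.9 in imiquimod ears. At days 2 and 8 the differences of -0.08 ± 0.12 and -0.27 ± 0.11 were not called (edgeR adjusted p = 0.713 and 0.242). All drug libraries of the day 3 start and 5 of 6 of each other start lay below every imiquimod library. The log2 fold changes were -0.63 ± 0.10, -0.53 ± 0.10 and -0.44 ± 0.10, with edgeR adjusted p-values of 1.15e-05, 9.71e-05 and 0.00101.

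Rptn was lower with the drug at day 2, at 7.17 to 19.5 CPM (median 15.3) in drug-treated ears, against 15.8 to 97.8 (median 24.4) in imiquimod ears (-1.24 ± 0.31, edgeR adjusted p = 0.00515). Here imiquimod library 11 decided the call: at 97.8 CPM it stood far above the other imiquimod libraries, and without it the value was -0.63 (edgeR adjusted p = 0.0911). The call was also lost with limma voom (-0.77, adjusted p = 0.169) and in the compared groups alone (-1.26, edgeR adjusted p = 0.115). At later days and from every start day Rptn was not called, with values of -0.37 ± 0.27 at day 5, 0.12 ± 0.27 at day 8 and -0.28 ± 0.14, -0.03 ± 0.14 and 0.12 ± 0.14 from days 0, 3 and 5. In the start-day experiment the drug groups had medians of 919, 1100 and 1157 CPM, against 1168 in imiquimod ears, and all 3 overlapped it. The day 0 value was called with the epithelial scaling (-0.37, edgeR adjusted p = 0.0291) and without imiquimod library 8 or drug library 26 (0.0369 to 0.0466).

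Tchhl1 was lower with the drug at day 5, at a median of 0.352 CPM in drug-treated ears, against 1.02 in imiquimod ears, with overlapping groups (-1.36 ± 0.48, edgeR adjusted p = 0.0228). That call was lost with limma voom (-0.94, adjusted p = 0.123) and when imiquimod library 26, 28 or 30 or drug library 32 was left out (0.0501 to 0.0632). It was not called elsewhere, with values from -0.33 ± 0.25 from day 0 to 0.01 ± 0.24 from day 5. Crnn was called in none of the 6 drug comparisons, and its values ran from -0.17 ± 0.43 at day 5 to 0.73 ± 0.54 at day 2.

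Set against sham, drug-treated ears kept the split between Flg and Flg2 at days 5 and 8 and from each start day. At day 2 Flg2 was not called (-0.55 ± 0.39, edgeR adjusted p = 0.264), with 4 of 6 drug libraries below every sham library. Of the 7 genes, 5 were called higher and 0 lower at day 2 (all genes 24.2% and 20.1%, 44.2% in all). At day 5, 5 were called higher and 1 lower (31.1% and 29.3%, 60.3% in all), and the same numbers were called at day 8 (34.2% and 32.6%, 66.8% in all). From days 0, 3 and 5, 6 were called higher and 1 lower each time. The shares of all genes were 36.7% higher and 37.6% lower from day 0 (74.3% in all), 36.6% and 38.1% from day 3 (74.7%), and 37.4% and 38.1% from day 5 (75.5%). Flg2 was the gene called lower, with log2 fold changes of -2.69 ± 0.44 at day 5, -3.59 ± 0.44 at day 8 and -1.59 ± 0.36, -1.75 ± 0.37 and -1.49 ± 0.36 from days 0, 3 and 5. In the start-day experiment that left drug-treated ears at 0.333, 0.298 and 0.355 times the sham level, while imiquimod ears stood at 0.0607 times it. Flg stood at 20.8, 22.2 and 23.5 times the sham level with the drug, and at 12.8 times it with imiquimod alone. With the epithelial scaling the drug values against sham from days 0, 3 and 5 were 3.74, 3.81 and 3.92 for Flg and -2.22, -2.41 and -2.14 for Flg2. Hrnr was not called in drug-treated ears of the time course. Its values there were 0.40 ± 0.17 at day 2 (edgeR adjusted p = 0.0512), 0.23 ± 0.19 at day 5 (0.293) and 0.32 ± 0.17 at day 8 (0.0942). At days 2 and 8, 5 of 6 drug libraries lay above every sham library. Hrnr was higher than sham from days 0, 3 and 5 by 1.60, 1.75 and 1.79 (each ± 0.16), or by 0.97, 1.09 and 1.16 with the epithelial scaling. Tchh was higher by 0.93, 1.03 and 1.11 (each ± 0.11) there, or by 0.29, 0.37 and 0.48 with that scaling. Tchhl1 was called higher at day 2 on 17 counts in drug-treated ears, against 3 in sham ears (ratio 6.09, 95% exact counting interval 1.76 to 32.4), and the call was lost without drug library 17 (1.59, edgeR adjusted p = 0.182), and its day 5 call was lost without drug library 35 or sham library 19, 21 or 22 (edgeR adjusted p from 0.0667 to 0.121). Tchhl1 and Crnn are among the genes called higher in each comparison with sham, and the filter built in a difference for both. Within each experiment these comparisons share their sham libraries. The family took a median of 0.715%, 0.711% and 0.757% of all counts with the drug from days 0, 3 and 5, against 0.48% in imiquimod ears.

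No difference among the 3 start days was called for any of the 7 genes. The edgeR adjusted p ran from 0.485 for Rptn to 0.953 for Flg2, and Rptn alone had an unadjusted p under 0.05. Over all genes 0.00542% were called, which is 1 gene, and DESeq2 and limma voom called 0 of the 7. The drug effect among days 2, 5 and 8 was called for 0 of the 7, against 7.99% of all genes. There Rptn (edgeR adjusted p = 0.0643) and Hrnr (0.103) had an unadjusted p under 0.05, DESeq2 called Rptn (0.0318), and limma voom called 0. A missed threshold does not show that the effects were alike.

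The 2 experiments gave different sizes of imiquimod effect. In a joint fit of all 82 libraries, the effect at day 8 minus that of the start-day experiment was -1.27 ± 0.33 for Flg (edgeR adjusted p = 0.00255), -1.32 ± 0.24 for Hrnr (9.87e-06) and -1.25 ± 0.39 for Rptn (0.0132). With these 3 genes called lower and 0 higher, 10.3% of 19455 genes were called lower and 11.2% higher, 21.4% in all. The Rptn call was lost with limma voom (-1.19, adjusted p = 0.0946). Flg2 had -1.39 ± 0.59 and missed the threshold (edgeR adjusted p = 0.0853). All 8 epithelial marker genes were also called lower in this difference, with a median of -0.44, and their part in the result was not tested. Scaled on those epithelial genes, Flg had -0.84 (edgeR adjusted p = 0.014) and Rptn -0.82 (0.0533), and that scaling moved the median of all genes by 0.43. The drug effect at day 8 minus that from day 0 was called for 0 of the 7, while 0.334% of all genes were called higher and 0.493% lower, 0.828% in all. There Tchh (0.35 ± 0.16, edgeR adjusted p = 0.242) had an unadjusted p under 0.05, and DESeq2 and limma voom called 0.

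Markers of cell types moved with these comparisons. The summed level of 6 measured markers of suprabasal keratinocytes, which make filaggrin, was 25614 to 41626 CPM in imiquimod ears, against 15764 to 21181 in sham ears of the start-day experiment, and 4 of the 6 were called higher and 2 lower. At day 5 the sum was 19048 to 33379 CPM in imiquimod ears, against 22014 to 32064 in sham ears, and 2 were called higher and 4 lower. With the drug the sum was 27165 to 59546 CPM at day 5, against 19048 to 33379 in imiquimod ears, and 49772 to 70129 CPM from day 0, against 25614 to 41626. Of the 6 markers, 5 were called higher at day 5 and 4 from day 0, and 0 were called lower. The summed level of 5 leukocyte markers was 207 to 259 CPM with the drug from day 0, against 290 to 465 in imiquimod ears and 75.1 to 97.5 in sham ears. In the time course it was 90 to 323 CPM with the drug at day 5, against 288 to 495 in imiquimod ears. At day 8 it was 174 to 363 CPM with the drug, against 200 to 287 in imiquimod ears. At day 8, 0 of the 5 leukocyte markers were called, against 1.56% of all genes. The sum of 8 epithelial markers was 9610 to 10751 CPM with the drug from day 0, against 9632 to 10468 in imiquimod ears and 5497 to 6581 in sham ears. The sum of 5 basal keratinocyte markers was 22919 to 26863 CPM in start-day imiquimod ears, against 12253 to 13417 in sham ears, with 2 called higher and 3 lower. Muscle, cartilage and fibroblast markers were lower in imiquimod ears of that experiment. The summed level of 4 muscle genes was 553 to 701 CPM, against 3147 to 3405 in sham ears. That of 4 cartilage genes was 164 to 187, against 479 to 631, and that of 4 fibroblast genes 3618 to 4755, against 8426 to 10485. Called lower there were 4 of the 4 muscle, 3 of the 4 cartilage and 3 of the 4 fibroblast genes. At days 2, 5 and 8 the muscle genes called lower were 4 of 4 each time. With the drug from day 0 the muscle sum was 857 to 1070 CPM, against 553 to 701 in imiquimod ears, with 4 of 4 called higher. Over all genes, 38.1% were called higher and 39.9% lower with imiquimod in the start-day experiment, and 34.6% and 35.9% at day 5. At days 2 and 8, 28.5% and 33.6% were called lower. With the drug, 18.3% were called higher and 17.2% lower at day 5, and 18.2% and 16.9% from day 0. With shares that large under imiquimod, such counts are not themselves results about cell types. The part of these shifts in the values of the 7 genes was not tested.

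Genes that cut, modify and cross-link the family were called higher more often than lower with imiquimod. Of 16 such genes, 10 were called higher and 1 lower at day 2, 8 higher and 5 lower at day 5, 11 higher and 4 lower at day 8, and 14 higher and 1 lower in the start-day experiment. Over all genes, 57.7%, 70.4%, 68.1% and 78.1% were called in those comparisons. The list's medians were 0.37, 0.39, 0.60 and 1.20. The smallest adjusted p-values in the start-day experiment belonged to Tgm3, a transglutaminase (3.93 ± 0.07, edgeR adjusted p = 2.18e-28), Blmh, bleomycin hydrolase, which breaks filaggrin fragments to amino acids (3.24 ± 0.07, 5.37e-27), Tmem79, whose loss impairs lamellar granule secretion in mice (1.33 ± 0.04, 1.05e-23), and Casp14, a protease of filaggrin breakdown (4.32 ± 0.11, 1.18e-22). At day 8 the genes called lower were Pcsk6, a proprotein convertase (-0.96 ± 0.08), Prss8, which encodes prostasin (-0.71 ± 0.13), Hal, which turns histidine into urocanic acid (-0.76 ± 0.16), and Spink5, a protease inhibitor (-0.42 ± 0.11). Of these 4, Prss8 and Spink5 were instead called higher in the start-day experiment (0.76 ± 0.09 and 1.01 ± 0.08).

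With the drug the same list divided. At day 2, 0 were called higher and 4 lower, at day 5, 6 higher and 5 lower, and at day 8, 3 higher and 0 lower. From days 0, 3 and 5 the counts were 5 higher and 6 lower, 6 higher and 4 lower, and 6 higher and 2 lower. The shares of all genes called were 16.5%, 35.4% and 1.56% at days 2, 5 and 8 and 35.1%, 34.3% and 27.7% from days 0, 3 and 5. From day 0, Hal (0.98 ± 0.14, edgeR adjusted p = 8.71e-06) and Pcsk6 (0.41 ± 0.06, 4.83e-06) were called higher, and Tgm3 (-0.63 ± 0.06, 2.01e-08) and Tgm1, a second transglutaminase of the envelope (-0.45 ± 0.09, 0.00018), were called lower. Of 12 regulators of epidermal differentiation, 8 were called higher and 2 lower at day 2, 6 and 3 at day 5, 8 and 3 at day 8, and 9 and 2 in the start-day experiment with imiquimod, against the same shares of all genes as above (57.7%, 70.4%, 68.1% and 78.1%). In the start-day experiment, Cebpb (1.23 ± 0.06), Zfp750 (1.33 ± 0.06) and Grhl3 (1.92 ± 0.09), all transcription factors of keratinocyte differentiation, were among those called higher. From day 0 the drug gave 3 called higher and 3 lower, against 35.1% of all genes called.

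**Figure D5:**
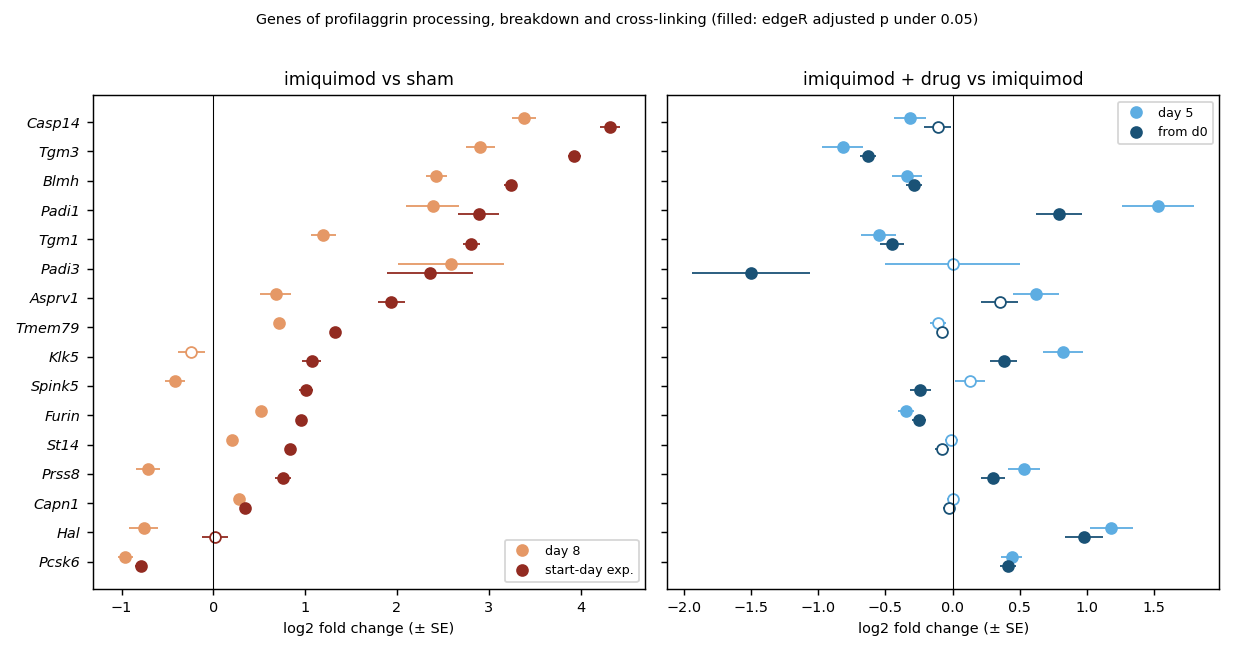
Log2 fold changes with standard errors of 16 genes of filaggrin processing, breakdown and cross-linking, for imiquimod against sham (left, day 8 and start-day experiment) and imiquimod with drug against imiquimod (right, day 5 and from day 0). Filled points passed an edgeR adjusted p of 0.05. Casp14 and Tgm3 lead on the left, and on the right Hal is at 1.18 and 0.98 while Tgm3 is at -0.82 and -0.63.

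The members' patterns over libraries differed from each other. Over the 82 libraries, with each experiment centred on its own mean, log2 CPM of Flg had a Pearson r of 0.93 with Rptn, 0.71 with Hrnr and -0.60 with Flg2, and Flg2 had 0.07 with Hrnr and -0.79 with Rptn. The libraries share treatments, so these values describe the groups as much as the genes. Among 12758 other genes, the 3 most like Flg were Ctsa (r = 0.975), Tgm5 (0.965) and Ctsd (0.964), and those most like Flg2 were Agpat4 (0.968), Lce1m (0.967) and Cgn (0.967). Hrnr was closest to Dmkn (0.953), Lce1e (0.941) and Cdsn (0.937), and Rptn to Casp14 (0.991), Atp6v1b2 (0.988) and Blmh (0.988). Tchh was closest to Ankrd13a (0.915), Enah (0.911) and Abcc3 (0.911), Tchhl1 to Ugcg (0.921), Cnfn (0.919) and Sdr9c7 (0.919), and Crnn to Purg (0.901), Casp14 (0.900) and Atp6v1a (0.896).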

How the data were processed

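Bulk RNA was sequenced from 82 ear punches, with TRI reagent for extraction and 1 µg of total RNA as input to a Tecan Universal Plus mRNA kit, per the labels' protocols. Per gene, the deposited files give estimated counts, which the authors made with salmon according to the table names and on build GRCm39 per the submitters' processing notes. Which salmon version, annotation and strand setting were used is not given in the sources used here. In GENCODE M21 the span of the gene Gm37245 overlaps those of Hrnr, Rptn and Tchh on the other strand. The spans of Rplp0-ps1 and Gm37857 overlap those of Flg and Rptn on the same strand. Only whole gene spans were compared, so whether exons overlap, and whether any reads could be confused, was not examined. Of 574 values of the 7 genes, 569 were whole within 0.01, with a largest fraction of 0.356.

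Counts were rounded and tested with edgeR 4.0.16 in R 4.3.3 (filterByExpr, TMM factors, robust quasi-likelihood F tests, Benjamini-Hochberg adjustment over all tested genes, threshold 0.05). Each experiment was 1 fit, and a joint fit of both gave the differences between experiments. Log2 CPM for correlations used a prior count of 2, restricted to genes averaging 1 or more on that scale in both experiments. Simulated data were used to test this edgeR fit. Alternatives were RLE factors, scaling on 8 epithelial genes, no filter on low counts, at least 1 CPM in 4 libraries, limma 3.58.1 voom with library weights, DESeq2 1.42.0, only the compared groups, day 2 without imiquimod libraries 9 and 11, and each library left out in turn. All 7 genes are named whether or not they passed, of each further list up to 4 called genes by smallest adjusted p (the 4 processing genes called lower at day 8 were picked after their values were seen), and for likeness the 3 genes of highest r per member. The values of a single regulator are not reported here. The members, lists and tests were chosen with earlier results of these data known. Depth was 13.1 to 35.5 M counts per library, and all columns were used.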

Additional observations from a re-analysis of the deposited data

Results flagged for a closer look

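In 8 of 98 combinations of a gene and a group, 1 library stood far from the others of its group. The limits of the rule were made to flag about 1 in 20 by chance, and its rate in data such as these was not measured. In the drug groups of the time course at day 2, Crnn was 0.714 CPM in library 15 and Tchhl1 was 0.482 CPM in library 17. In imiquimod ears at day 2, Flg was 740 CPM in library 10 and Rptn was 97.8 CPM in library 11. In the start-day experiment, library 26 of the drug from day 0 had 13.5 CPM of Tchh and 3.02 CPM of Tchhl1, library 20 of the drug from day 3 had 5.03 CPM of Crnn, and sham library 6 had 0.443 CPM of Crnn.

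The imiquimod effect differed among days for 5 genes by the edgeR F test, with adjusted p-values of 0.00318 for Flg, 8.16e-07 for Flg2, 0.0158 for Hrnr, 1.65e-06 for Rptn and 0.00271 for Tchh. It differed between day 8 and the start-day experiment for Flg (edgeR adjusted p = 0.00255), Hrnr (9.87e-06) and Rptn (0.0132). Causes were not tested.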

How the results depend on the processing

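Of the counts of members called per comparison, 146 alternatives other than leaving out 1 library stayed within 1.5 times the reported count and 10 did not, and with 1 library left out 264 did and 28 did not. The drug comparison at day 2 called 0 of the 7 genes, in place of 1, with limma voom, with only the compared groups and without imiquimod libraries 9 and 11. At day 8 it called 0, in place of 2, without the filter on low counts. The drug effect among days had 1 call, in place of 0, with DESeq2 and without libraries 9 and 11. Sham among days had 0 calls without the filter and 2 with limma voom, DESeq2 or only the compared groups, in place of 1. Leaving out 1 library moved these counts over 0 to 2 for the drug at day 2, 3 to 5 at day 5, 0 to 2 at day 8, 0 to 2 for the drug effect among days and 0 to 2 for sham among days. The causes were not tested.

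Signs turned for some uncalled values. Hrnr with the drug at day 2 was -0.06 without libraries 9 and 11 and -0.04 to 0.17 with 1 library left out. Its drug effect at day 8 minus that from day 0 was 0.01 with RLE factors, no filter, 1 CPM or DESeq2 and 0.02 with epithelial scaling or limma voom. Tchhl1 from day 5 was -0.06 with epithelial scaling, and Tchh in the day 8 minus start-day imiquimod difference was 0.08 with it, in place of -0.35 ± 0.16 (edgeR adjusted p = 0.11). With 1 library left out, ranges that changed sign were -0.09 to 0.55 for Crnn and -0.48 to 0.22 for Tchhl1 with the drug at day 8, -0.11 to 0.29 for Crnn from day 0, -0.13 to 0.04 for Rptn and -0.19 to 0.07 for Tchhl1 from day 3, and -0.09 to 0.17 for Tchhl1 from day 5.

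Epithelial scaling moved the median of all genes by -0.55 for imiquimod in the start-day experiment and by -0.66 to -0.63 for the drug against sham there. Tchhl1 and Crnn rest on few counts in sham ears. Over all genes, the drug comparison at day 2 called 3100, but 0 with only the compared groups and 7 without libraries 9 and 11, which earlier work on these data had singled out. At day 8 it called 293, but 147 without the filter, 525 with DESeq2 and 820 with limma voom. The drug effect among days was called for 1500 genes, but for 703 without the filter, 696 with epithelial scaling and 692 with the compared groups, and sham among days for 1036, but for 620, 2222 and 1797 without the filter, with epithelial scaling and with limma voom. Epithelial scaling also raised the genes of the imiquimod difference between experiments to 11444, in place of 4168. The drug effect at day 8 minus that from day 0 was called for 161 genes, but for 47 without the filter, 428 with DESeq2 and 612 with limma voom, and DESeq2 called 130 among start days, in place of 1. No paired analysis was possible because the labels number libraries through each experiment, so groups compared share no number.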
